A study of Rattus norvegicus with 5 samples.

Results

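Among 35234 barcodes that passed the depth filters in 5 libraries of the rat ventral tegmental area (VTA), 7931 were nuclei rich in *Mog*, and 2194 of these had *Grm3* transcripts and no *Opalin* transcript. They are called *Grm3*+ *Opalin*- nuclei. A barcode had to hold at least 600 unique molecular identifiers (UMIs, each standing for 1 captured transcript), more than 200 and fewer than 5000 genes and under 5% of its UMIs from mitochondrial genes. A *Mog* nucleus had at least 3 *Mog* UMIs, at least 10 *Mog* UMIs per 10000 UMIs, and at most 1 UMI in all from *Nyap2*, *Pdgfra*, *Slc1a2*, *Cx3cr1* and *Cldn5*, which mark neurons, oligodendrocyte precursors, astrocytes, microglia and endothelium. A *Grm3*+ *Opalin*- nucleus further had at least 1 *Grm3* UMI and 0 *Opalin* UMIs. These genes chose the nuclei, so their values are given as a description and were not tested.

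The tissue came from 5 adult male Sprague-Dawley rats. For each rat, punches of the VTA from both sides of the frozen brain were pooled into 1 sample, and nuclei were run on a 10x Genomics 3′ kit. The labels give the treatment of every sample as saline, while the study describes the rats as drug-naïve, and there was no second condition. Libraries held 10193355 to 88576210 UMIs. No barcode sequence was shared by *Grm3*+ *Opalin*- nuclei of different libraries (0 of 2194 nuclei), and other barcodes were not compared.

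Oligodendrocytes wrap axons in myelin, and *Mog* encodes a glycoprotein on the outer face of the sheath. *Opalin* encodes a membrane glycoprotein of myelin that is made late in the differentiation of the cell. *Grm3* encodes the metabotropic glutamate receptor mGluR3, which couples to Gi proteins, lowers cyclic AMP and is activated by glutamate and by the peptide N-acetylaspartylglutamate (NAAG). *Trpv3* encodes a cation channel known best for its response to warmth in skin.

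The name of a *Grm3* type went only part of the way with the data. *Grm3* was detected in 91.6 ± 6.61% of *Mog* nuclei (SD, n = 5), with a range over rats of 81.0 to 97.7%, so most nuclei with *Opalin* had *Grm3* as well. *Grm3*+ *Opalin*+ nuclei numbered 5311, *Grm3*- *Opalin*- nuclei 295 and *Grm3*- *Opalin*+ nuclei 131. The *Grm3*+ *Opalin*- nuclei are therefore called here by their rule.

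Rats 1 to 5 gave 52, 780, 117, 805 and 440 *Grm3*+ *Opalin*- nuclei. Of the *Mog* nuclei of each rat, these were 13.4, 27.9, 63.6, 28.0 and 25.9%, with a mean of 31.8 ± 18.8% (SD, n = 5), against 27.7% of all *Mog* nuclei pooled. Rat 3 had the highest share, rat 1 the lowest, and the other 3 rats lay close together. Without rat 3 the mean was 23.8%.

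**Figure D1:**
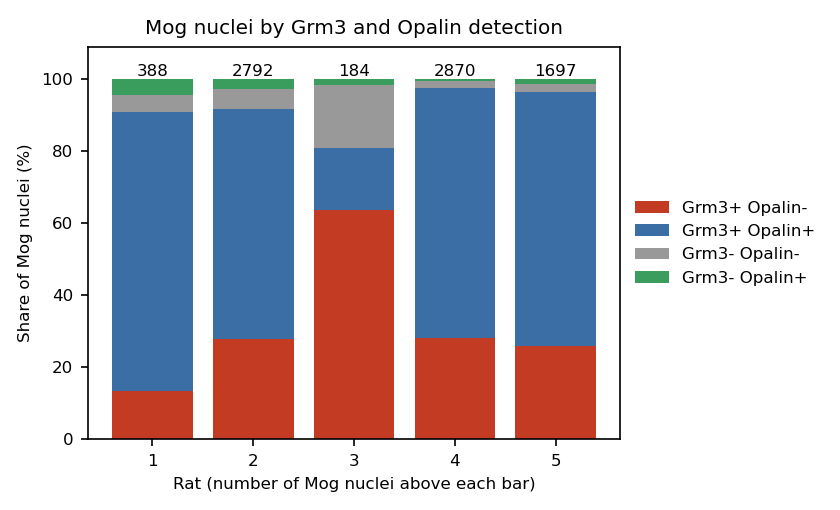
Share of *Mog* nuclei (%, y axis, starting at 0) in each rat (x axis) by detection of *Grm3* and *Opalin*, with the number of *Mog* nuclei above each bar. *Grm3*+ *Opalin*- nuclei made up 63.6% of the 184 *Mog* nuclei of rat 3 and 13.4 to 28.0% in the other rats.

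Depth moved with this share. Median UMIs of the *Grm3*+ *Opalin*- nuclei of rats 1 to 5 were 2648, 2592, 1045, 3000 and 2490.5, and those of *Grm3*+ *Opalin*+ nuclei were 6542, 2957, 1148.5, 3246 and 2792. The *Grm3*+ *Opalin*- nuclei were the shallower group in each rat, with the widest gap in rat 1. Of all *Mog* nuclei with *Grm3*, 60.1% had no *Opalin* UMI where a nucleus held 600 to under 1500 UMIs, 31.5% from there to under 3000, 25.4% to under 6000 and 13.8% at 6000 or more. In rat 3, 79.8% and 75.0% of nuclei in the first 2 of these ranges lacked *Opalin*, more than in any other rat. When every *Mog* nucleus was thinned to 1000 UMIs, with 177 shallower ones left out, the *Grm3*+ *Opalin*- share was 54.1 ± 6.76% (SD, n = 5), with a range of 48.4 to 64.6%, since *Opalin* was then read in 35.1 ± 14.2% of *Mog* nuclei and *Grm3* in 87.0 ± 8.65%.

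**Figure D2:**
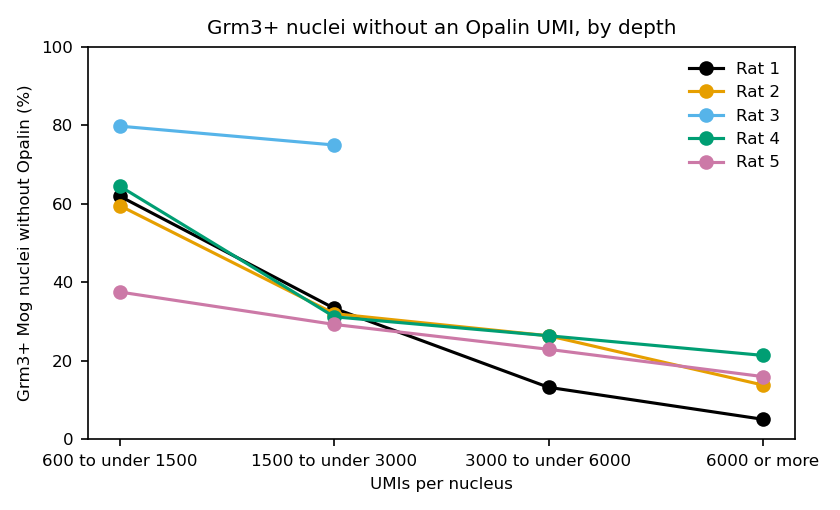
Share of *Grm3*+ *Mog* nuclei without an *Opalin* UMI (%, y axis) by UMIs per nucleus (x axis), 1 line per rat, drawn only where a rat had at least 20 such nuclei. The pooled share was 60.1% in the shallowest range and 13.8% in the deepest, and rat 3 lay above the other rats.

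At the edges of the rule, 154 of the 2194 nuclei (7.02%) had exactly 1 *Grm3* UMI and 1687 (76.9%) had 5 or more. On the other side of the *Opalin* limit, 1868 *Mog* nuclei with *Grm3* had exactly 1 *Opalin* UMI, 1329 had 2 and 2114 had 3 or more. The *Mog* level was from 10 to under 12 per 10000 UMIs in 97 of the chosen nuclei, and 65 further nuclei met every other criterion with 8 to under 10.

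*Grm3* in the *Grm3*+ *Opalin*- nuclei stood at 40.3, 29.4, 30.7, 54.2 and 42.9 UMIs per 10000 UMIs in rats 1 to 5, the unit of every level given here. The mean was 39.5 ± 10.1 (SD, n = 5), against 6.13 ± 1.42 in nuclei with under 10 *Mog* UMIs per 10000, called non-oligodendrocyte nuclei. Every rat was far above that level, and the lowest *Grm3*+ *Opalin*- value was in rat 2. Non-oligodendrocyte nuclei of rats 1 to 5 had median depths of 1168, 876, 1205, 4446 and 3025 UMIs. Their median mitochondrial shares were 3.99, 3.77, 0.328, 0.235 and 0.971%. Their summed level of 21 myelin genes was 147 and 149 in rats 1 and 2 and 46.8 to 58.5 in rats 3 to 5. They are thus not a clean set of other cells, and the part of this in the ratios was not tested. Droplets also take up free RNA, and *Grm3* was found in 23.1% of 173 nuclei with at least 2 *Cx3cr1* UMIs (median depth 2142 UMIs, pooled level 4.67) and *Opalin* in 14.5% of them (level 1.03). In barcodes under 100 UMIs, which hold free RNA, the levels were 3.45 to 13.4 for *Grm3* and 0.967 to 2.40 for *Opalin* over the rats. A single UMI of either gene can thus be free RNA.

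The oligodendrocyte markers were present. The level of *Mbp*, which encodes myelin basic protein, was 74.6, 81.7, 62.9, 75.4 and 74.0 in rats 1 to 5, with a mean of 73.7 ± 6.80 (SD, n = 5) against 26.8 in non-oligodendrocyte nuclei. The markers checked (*Mbp*, *Mobp*, *Mag*, *Cnp*, *Cldn11*, *Sox10*, *Myrf* and *St18*) were each above the non-oligodendrocyte level in 5 of 5 rats, with ratios of means from 2.11 for *Cnp* to 8.87 for *St18*. Markers of other cells were mostly below the non-oligodendrocyte level. The rule held down genes that mark such cells in *Grm3*+ *Opalin*- nuclei and not in non-oligodendrocyte nuclei, so the choice favoured this difference. The summed level of 9 neuron markers was 5.39 to 12.7 in the *Grm3*+ *Opalin*- nuclei of the 5 rats against 35.1 to 51.6 in non-oligodendrocyte nuclei, and that of 8 microglia markers was 0.345 to 1.05 against 0.996 to 3.85. The summed level of 8 astrocyte markers was 4.17 to 11.6 against 7.52 to 18.2. Rat 3 was the exception, since astrocyte markers (11.6) and microglia markers (1.05) in its *Grm3*+ *Opalin*- nuclei were above the level of its own non-oligodendrocyte nuclei.

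The genes with the highest ratio to non-oligodendrocyte nuclei, given as a description because *Mog* chose both groups, were *Mog* itself (20.8), *Sec14l5* (11.6), *Piga* (10.4), *Prr5l* (10.4), *Slc5a11* (10.2), *Anln* (9.81), *Synj2* (9.71), *Rasgrp3* (9.51), *Insc* (9.28) and *Trpv3* (9.08). *Slc5a11* is a sodium-coupled inositol transporter, *Anln* encodes the cytoskeletal scaffold anillin of the myelin sheath, *Synj2* a phosphoinositide phosphatase and *Rasgrp3* an activator of Ras proteins. The ratio pointed the same way in 5 of 5 rats for each, but the genes were picked for it and the rule fixed that of *Mog*. In the tests described below, *Slc5a11* passed against *Grm3*- *Opalin*+ nuclei (log2 fold change 0.83, edgeR adjusted p = 0.040) and the others tested did not. Against *Grm3*- *Opalin*- nuclei *Rasgrp3* was lower (-0.57, edgeR adjusted p = 0.030), and *Piga*, *Prr5l*, *Anln* and *Insc* did not pass. Most thus did not set these nuclei apart from *Grm3*- *Opalin*+ nuclei.

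*Trpv3*, named as a marker of these nuclei, was at 0.799, 1.43, 0.309, 3.34 and 2.46 in the *Grm3*+ *Opalin*- nuclei of rats 1 to 5. Rats 4 and 5 were high and rat 3 low. Barcodes under 100 UMIs of the same rats held 0.0788, 0.205, 0.0635, 1.41 and 0.676, below the *Grm3*+ *Opalin*- level in each rat and likewise highest in rats 4 and 5. Its mean was 1.67 ± 1.23 (SD, n = 5), close to the 1.97 ± 1.19 of *Grm3*+ *Opalin*+ nuclei and above the 0.184 ± 0.133 of non-oligodendrocyte nuclei. In the tests described below its log2 fold change was -0.17 (SE 0.07, edgeR adjusted p = 0.14) against *Grm3*+ *Opalin*+ nuclei, 0.72 (SE 0.20, edgeR adjusted p = 0.039) against *Grm3*- *Opalin*- nuclei and 0.36 (SE 0.28, edgeR adjusted p = 0.68) against *Grm3*- *Opalin*+ nuclei. A *Trpv3* UMI occurred in 846 of the 2194 nuclei (38.6%, median depth 2671 UMIs) and in 63 of the 173 *Cx3cr1* nuclei (36.4%, median depth 2142 UMIs), whose pooled level of 2.50 was close to the 2.37 of the *Grm3*+ *Opalin*- nuclei. Nuclei chosen in the same way by *Nyap2*, *Pdgfra*, *Slc1a2* or *Cldn5* had a *Trpv3* UMI in 2.97, 1.46, 6.12 and 0.781%, so *Cx3cr1* nuclei stood apart from the nuclei of these other cells. The *Trpv3* level of *Cx3cr1* nuclei was 0.728, 1.33, 4.10 and 3.16 in rats 1, 2, 4 and 5, in the same order as in *Grm3*+ *Opalin*- nuclei, and rat 3 had 0 such nuclei. When nuclei were thinned to 1000 UMIs, *Trpv3* was detected in 15.4 ± 9.17% of *Grm3*+ *Opalin*- nuclei and in 16.1 ± 9.49% of *Grm3*+ *Opalin*+ nuclei (SD, n = 5), where unthinned shares were 29.6 ± 19.0% and 37.9 ± 16.5%.

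Gene tests compared UMI counts summed over the nuclei of a group within each rat, with the rat as a block (edgeR quasi-likelihood test, Benjamini-Hochberg adjusted p under 0.05). They ask how the *Grm3*+ *Opalin*- nuclei differed from the other *Mog* nuclei in genes that the rule did not use. All comparisons share the sums of the *Grm3*+ *Opalin*- nuclei. Very small p-values can take little account of the spread of a gene between rats and are to be read with the values of each rat. Rats 1 and 3 stood apart. Rat 3 had the shallowest *Mog* nuclei and only 32, 32 and 3 nuclei in the *Grm3*+ *Opalin*+, *Grm3*- *Opalin*- and *Grm3*- *Opalin*+ groups, and rat 1 had 18 and 17 nuclei in both groups without *Grm3*, with median mitochondrial shares of 4.21 and 4.32% against 0.663% in its *Grm3*+ *Opalin*- nuclei.

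Against *Grm3*+ *Opalin*+ nuclei, the largest group, *Grm3*+ *Opalin*- nuclei had more transcript of *Itga8*, *Thsd7b*, *Dpysl5* and *Bace2* and less of *Grm7*, *Lrrc7*, *Rras2*, *Ptpro* and *Cntn1*. It was chosen with these data in view. Of 10441 genes, 988 differed (9.46%), 478 higher (4.58%) and 510 lower (4.88%), and the median log2 fold change of all genes was 0.01. A change of over 2-fold was found in 119 of them, and 448 moved the same way in all 5 rats. Without rats 1 and 3 the count was 1105 of 11476 genes tested and without rat 4 it was 463 of 10006. DESeq2 called 536 of 20952 genes, 139 higher and 397 lower, a lean to be read beside its counts over lists. Without the block 0 passed, with 319 at an unadjusted p under 0.05. With both groups matched within each rat by UMI total, 895 of 9177 genes differed. Of the 938 calls that were tested again, 781 passed in the same direction. The larger group was cut to match the smaller, which in rat 3 left 32 *Grm3*+ *Opalin*- nuclei.

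*Itga8*, which encodes the integrin alpha 8 chain, was at 1.07, 0.838, 0.186, 1.02 and 0.622 in *Grm3*+ *Opalin*- nuclei of rats 1 to 5 and at 0.183, 0.395, 0.212, 0.216 and 0.150 in *Grm3*+ *Opalin*+ nuclei. The level was higher in 4 of the 5 rats, and in rat 3 both groups were low. The log2 fold change was 1.74 (SE 0.12, edgeR adjusted p = 8.1e-48). *Thsd7b*, which encodes a membrane protein with thrombospondin repeats, was at 1.54, 1.16, 0.805, 0.961 and 1.02 against 0.333, 0.368, 0.425, 0.323 and 0.427. The 2 groups did not overlap, and the log2 fold change was 1.53 (SE 0.10, edgeR adjusted p = 4.6e-49). It was found in 191 of the 2194 *Grm3*+ *Opalin*- nuclei (8.71%), of which 10 held 38.0% of its UMIs. *Bace2*, an aspartyl protease, was at 1.97, 1.71, 0.248, 1.38 and 1.20 against 0.623, 0.738, 0.212, 0.455 and 0.376, higher within each rat, with rat 3 low in both groups (log2 fold change 1.43, SE 0.09, edgeR adjusted p = 6.4e-53). *Dpysl5*, a collapsin response mediator protein, had a mean of 1.14 ± 0.474 against 0.418 ± 0.0919 (SD, n = 5), and its log2 fold change was 1.48 (SE 0.10, edgeR adjusted p = 6.5e-51). These genes were not highest in this group. Against *Grm3*- *Opalin*- nuclei *Itga8*, *Bace2* and *Dpysl5* were lower, at -1.68, -1.17 and -1.15 (edgeR adjusted p = 0.00056, 0.0058 and 0.00086), as was *Thsd7b*. *Itga8* was lower in only 3 of 5 rats and higher in 2, and *Bace2* was lower in 4. An *Itga8* UMI occurred in 1 *Grm3*- *Opalin*- nucleus of rat 1 and in 0 of rat 3. Against *Grm3*- *Opalin*+ nuclei *Itga8*, *Bace2* and *Dpysl5* did not pass (-0.37, -0.05 and -0.40). *Thsd7b* was lower than in these nuclei, at -1.81 (edgeR adjusted p = 7.8e-12), in 4 of 5 rats. It was found in 33 of the 131 *Grm3*- *Opalin*+ nuclei (25.2%), of which 10 held 68.9% of its UMIs.

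The other genes highest by the naming rule were *Depdc1b*, *Igf2bp2*, *Mylk*, *Glyatl1*, *St8sia5*, *Rnf152*, *Exph5* and *Fhod3*, with log2 fold changes from 1.26 for *Fhod3* to 1.80 for *Depdc1b*. *Mylk* encodes myosin light chain kinase, *Igf2bp2* an RNA-binding protein, *St8sia5* a sialyltransferase and *Fhod3* a formin that builds actin filaments. *Glyatl1* belongs to a family of similar genes, between which the counting may have divided reads. *Rnf152* and *Fhod3* were lower than in *Grm3*- *Opalin*- nuclei, at -1.07 and -1.03 (edgeR adjusted p = 0.0064 and 0.0056).

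Among the lower genes, *Grm7*, which encodes the metabotropic receptor mGluR7, was at 0.479, 0.272, 0.495, 0.293 and 0.315 in *Grm3*+ *Opalin*- nuclei and at 0.567, 0.798, 1.49, 1.48 and 0.973 in *Grm3*+ *Opalin*+ nuclei. No value of the first group reached the second, although rat 1 came close, and the log2 fold change was -1.89 (SE 0.12, edgeR adjusted p = 4.4e-55). Non-oligodendrocyte nuclei held 5.83 ± 2.63 (SD, n = 5). *Cntn1*, which encodes contactin, an adhesion molecule of axon and glia contacts, was at 0.586, 0.834, 1.30, 0.653 and 0.889 against 1.94, 1.53, 2.34, 1.76 and 1.64. It was lower in 5 of 5 rats without overlap (log2 fold change -1.14, SE 0.09, edgeR adjusted p = 1.8e-36). *Rras2*, a small Ras-related GTPase, had means of 0.288 ± 0.118 and 0.738 ± 0.186 (SD, n = 5), with a log2 fold change of -1.50 (SE 0.13, edgeR adjusted p = 1.9e-28). *Ptpro*, a receptor tyrosine phosphatase, had 0.428 ± 0.263 against 1.35 ± 0.276 (SD, n = 5), and no *Ptpro* UMI occurred in the *Grm3*+ *Opalin*- nuclei of rat 1. *Nod1*, *Lrrc7*, *Npr1*, *Ust*, *Mcam*, *Rhbdl3*, *Notch1* and *Adcy9* completed the list of lowest genes, from -1.14 for *Adcy9* to -2.15 for *Nod1*. *Lrrc7* encodes a postsynaptic scaffold, *Npr1* the receptor of atrial natriuretic peptide, *Notch1* a receptor that holds back oligodendrocyte differentiation and *Adcy9* an adenylyl cyclase. *Nod1* rests on 222 UMIs over all 10 sums.

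**Figure D3:**
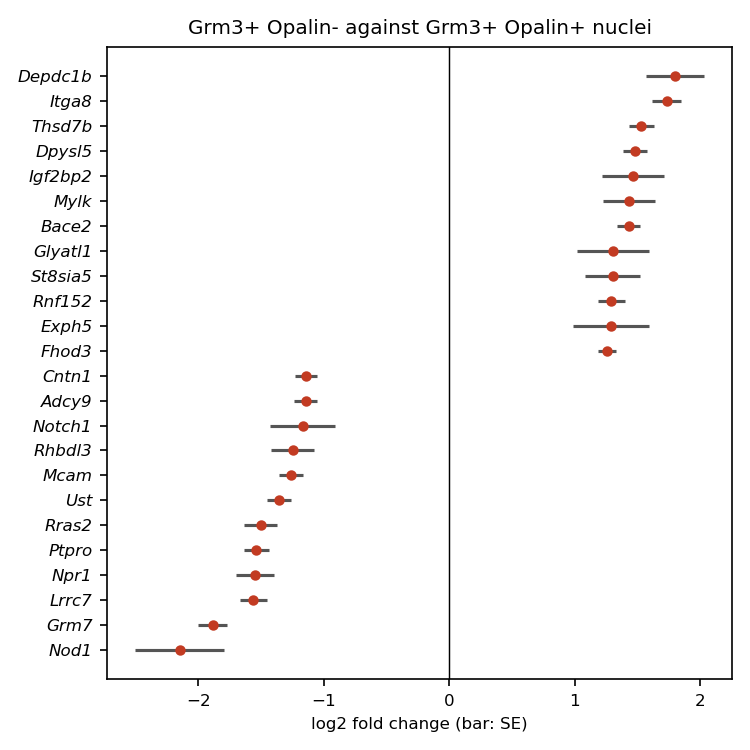
Log2 fold changes (x axis, bars are SE) of the 24 genes named for *Grm3*+ *Opalin*- against *Grm3*+ *Opalin*+ nuclei of the 5 rats. Values run from -2.15 for *Nod1* to 1.80 for *Depdc1b*.

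By function, both myelin and contact genes held calls in this comparison. Of 21 myelin genes tested, *Hapln2* was higher and *Aspa*, *Car2*, *Cldn11*, *Mal* and *Tspan2* were lower, with a median log2 fold change of -0.07. *Hapln2*, a link protein of the matrix at nodes of Ranvier, was at 7.30, 6.06, 6.87, 5.57 and 6.84 against 3.95, 4.59, 5.73, 4.12 and 4.67. It was higher in each rat (log2 fold change 0.47, SE 0.06, edgeR adjusted p = 4.5e-12). *Mal* and *Tspan2*, both membrane proteins of myelin, had log2 fold changes of -0.81 and -0.95, while *Mbp* had -0.07 (SE 0.07, edgeR adjusted p = 0.78). Of 28 genes of axon contact and the paranode, *Epb41l2* was higher and 10 were lower, among them *Nfasc* (-0.48), *Ank3* (-0.47), *Lsamp* (-0.80) and the neuregulin receptors *Erbb3* (-0.69) and *Erbb4* (-0.47), with a list median of -0.19. DESeq2 called 1 higher and 7 lower of the myelin genes, and 0 higher and 13 lower of the contact genes.

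Of 19 oligodendrocyte transcription factors, *Klf9*, *Klf13*, *Myrf*, *Olig1*, *Sox2* and *Zfp536* were lower and 0 were higher by edgeR, at an unadjusted p under 0.05 or by DESeq2, with a list median of -0.14. *Olig1* had the largest of these log2 fold changes, -0.51, and *Myrf*, the regulator of myelin genes, had -0.28. Among 11 genes of newly formed and myelin-forming oligodendrocytes, *Enpp6* was higher and *Bcas1*, *Bmp4*, *Cemip2*, *Fyn*, *Rras2* and *Tcf7l2* were lower (list median -0.20). *Enpp6*, a choline phosphodiesterase of newly formed oligodendrocytes, was at 4.85, 3.61, 1.73, 3.90 and 3.45 against 1.67, 2.28, 2.76, 1.72 and 1.64, higher in 4 of 5 rats and lower in rat 3 (log2 fold change 0.96, SE 0.07, edgeR adjusted p = 4.1e-44). Genes of mature states divided evenly. Of 19 tested, *Anln*, *Apod*, *Hopx*, *Klk6*, *S100b* and *Slc5a11* were higher and *Car2*, *Csmd1*, *Grm7*, *Plxdc2*, *Qdpr* and *Rbfox1* lower, with a list median of 0.08.

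Of 32 genes of cholesterol and fatty acid synthesis, 5 were higher, among them *Acaca*, *Elovl5*, *Elovl7* and *Hsd17b7*, and *Acsl3* was lower (list median 0.12). *Elovl7*, an elongase of long fatty acids, had the largest log2 fold change, 0.61. Of 24 glutamate receptor and scaffold genes, *Grid1* and *Grm5* were higher and 5 were lower, among them *Dlg1*, *Gria2*, *Grik2* and *Grm7* (list median -0.10). Of 34 genes of Gi and cyclic AMP signalling below mGluR3, *Rgs12* was higher and *Adcy9*, *Creb5*, *Pde4b* and *Rgs3* lower (list median -0.08). Of 9 genes of NAAG metabolism, *Folh1*, the peptidase that releases glutamate from NAAG, and *Aspa*, which splits N-acetylaspartate, were lower, with log2 fold changes of -0.27 and -0.25, and 0 were higher by edgeR, at an unadjusted p under 0.05 or by DESeq2 (list median -0.13). DESeq2 called 1 higher and 1 lower of the lipid synthesis genes, 0 higher and 3 lower of the glutamate receptor genes and 0 higher and 6 lower of the Gi signalling genes.

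Among 19 genes of potassium buffering and gap junctions 2 were higher, among them *Gjb1*, and *Hepacam* and *Kcna1* were lower (list median 0.03). *Slc1a3* and *Slc2a1*, a glutamate and a glucose transporter, were higher among 13 genes of axonal energy supply (list median -0.05), and *Dusp1* was lower among 7 immediate early and heat shock genes (list median -0.04). DESeq2 called 0 higher and 1 lower of the energy supply genes, 0 of the immediate early genes and 0 higher and 4 lower of the potassium buffering genes. Of 9 TRP channel genes, *Trpm3* was higher, with a log2 fold change of 0.54 (SE 0.09, edgeR adjusted p = 7.0e-09). Of the markers of other cells tested, 8 of neurons, 6 of dopamine neurons, 7 of precursors, 6 of astrocytes, 7 of microglia and 2 of vessels, *Slc1a3* in the astrocyte list was the 1 gene that passed (log2 fold change 0.35).

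Against *Grm3*- *Opalin*- nuclei, *Grm3*+ *Opalin*- nuclei had more *Adcy9*, *Dscaml1*, *Slc8a1* and *Robo1* and less *Thsd7b*, *Aff3*, *Mylk* and *Tox*. Of 4175 genes, 312 differed (7.47%), 176 higher (4.22%) and 136 lower (3.26%), with a median log2 fold change of all genes of -0.03. The change was over 2-fold for 173 genes, and 218 moved the same way in all 5 rats. Leaving out rats moved this count and the number of genes tested. The count was 725 of 5728 without rat 1, 133 of 3545 without rat 2 and 66 of 3663 without rat 4. It was 127 of 4253 without rat 5 and 804 of 8479 without rats 1 and 3. DESeq2 called 540 of 18654 genes, 496 higher and 44 lower, a lean to be read beside its counts over lists. Without the block 48 of 4175 passed, and 154 of 2533 passed with UMI totals matched. The summed neuron markers were 26.8 in the *Grm3*- *Opalin*- nuclei of rat 1, against 10.4 in its *Grm3*+ *Opalin*- nuclei, and their part in the result was not tested.

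*Adcy9* was at 0.959, 0.589, 0.866, 0.842 and 0.638 in *Grm3*+ *Opalin*- nuclei of rats 1 to 5 and at 0, 0.0885, 0, 0.118 and 0 in *Grm3*- *Opalin*- nuclei, where it rests on 7 UMIs. The groups did not overlap, and the log2 fold change was 3.19 (SE 0.42, edgeR adjusted p = 0.00018). *Adcy9* was abundant enough to test through the *Grm3*+ *Opalin*- sums alone, so its call depends on that group. The same held for *Dscaml1*, and other genes named in this comparison may have entered through 1 group alone. *Dscaml1*, an adhesion molecule of the immunoglobulin family, was at 4.69, 4.60, 1.42, 4.64 and 4.25 against 1.19, 1.13, 0.901, 0.0789 and 0.0836, higher in each rat and nearest in rat 3 (log2 fold change 2.91, SE 0.40, edgeR adjusted p = 0.00027). *Slc8a1*, the sodium-calcium exchanger, had means of 4.64 ± 1.16 and 1.03 ± 0.683 (SD, n = 5), and *Robo1*, a receptor of Slit guidance proteins, 2.73 ± 0.635 and 0.621 ± 0.202. Their log2 fold changes were 2.45 (SE 0.31) and 2.40 (SE 0.26), with edgeR adjusted p = 0.00012 and 5.7e-05. The other genes named as higher were *Dennd2a*, *Pdzd2*, *Fam13c*, the metalloproteases *Adamts20* and *Adamts6*, *Scube2*, the ATP-gated channel *P2rx7* and the protein kinase *Prkcq*, from 2.29 for *Prkcq* to 2.84 for *Dennd2a*. They stood higher in 5 of 5 rats, as the naming rule required.

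*Thsd7b*, higher in the *Grm3*+ *Opalin*- nuclei than in *Grm3*+ *Opalin*+ nuclei, was lower than in *Grm3*- *Opalin*- nuclei. The *Grm3*- *Opalin*- nuclei held 8.31, 5.73, 3.30, 12.7 and 5.43. No rat overlapped (log2 fold change -2.71, SE 0.22, edgeR adjusted p = 1e-05). *Aff3* was at 2.77, 1.27, 1.24, 2.19 and 1.66 against 3.09, 5.22, 3.60, 14.1 and 9.20, lower in each rat and closest in rat 1 (log2 fold change -2.03, SE 0.24, edgeR adjusted p = 8.8e-05). *Mylk*, *Nckap5*, *Depdc1b*, *Lgi4*, *Apba2*, *Rps6ka2*, *Igsf3*, *Arhgef37* and *Tox* were the other named genes, from -1.61 for *Tox* to -2.36 for *Nckap5*. *Lgi4* encodes a secreted ligand with a role in peripheral myelination and *Tox* a nuclear protein that binds DNA.

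Among the lists, *Aspa*, *Car2*, *Cldn11* and *Tspan2* were higher and *Gal3st1*, the enzyme that makes sulfatide, lower among 21 myelin genes (list median 0.13), where DESeq2 called 12 higher and 0 lower. Of 14 mature state genes *Car2*, *Pde8a*, *Plxdc2* and *Rbfox1* were higher and *S100b* lower (list median 0.26). Of 23 axon contact genes *Ank2*, *Cadm2*, *Erbb3*, *Erbb4* and *Ncam2* were higher and *Sema4d* lower (list median 0.18). For the last 2 lists DESeq2 called 7 higher and 1 lower and 9 higher and 1 lower. *Erbb4* was at 5.75, 5.18, 4.33, 6.39 and 5.79 against 2.14, 2.08, 1.50, 0.868 and 1.09, with no overlap (log2 fold change 1.97, SE 0.24, edgeR adjusted p = 0.00011).

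Genes around the receptor differed in part. *Folh1* was at 1.76, 0.979, 0.990, 1.24 and 1.25 in *Grm3*+ *Opalin*- nuclei against 0.475, 0.332, 0.901, 0.118 and 0.167, higher in each rat and close to equal in rat 3. Its log2 fold change was 2.06 (SE 0.33, edgeR adjusted p = 0.00084). With *Aspa* (0.75), it was 1 of 2 genes higher among 6 of NAAG metabolism (list median 0.19). *Adcy9*, *Creb5* and *Pde8a* were higher among 19 genes of Gi signalling (list median 0.17), and 0 of either list were lower by edgeR, at an unadjusted p under 0.05 or by DESeq2. *Adcy9* and *Folh1* entered this test through the *Grm3*+ *Opalin*- sums alone, so their calls depend on that group. Among 9 glutamate receptor and scaffold genes 1 was higher and 1, *Grid1*, was lower (list median 0.06), where DESeq2 called 5 higher and 0 lower, and *Trpm3* and *Trpv3* were higher among 6 TRP channel genes (list median 0.15).

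*Elovl7* and *Lss* were lower among 23 genes of cholesterol and fatty acid synthesis (list median -0.18), *Rras2* was lower among 8 genes of newly formed oligodendrocytes (list median -0.10) and *Myrf* was higher among 11 transcription factors (list median 0.25). Over all genes tested 7.47% were called, so counts of 1 or 2 genes do not set these lists apart. DESeq2 called 0 of these lipid synthesis genes, 1 higher and 0 lower of the newly formed list and 6 higher and 0 lower of the transcription factors. Of 12 potassium buffering genes 0 passed by edgeR, while 4 were at an unadjusted p under 0.05 and DESeq2 called 2 (list median 0.05). Of 4 energy supply genes and 3 immediate early genes 0 passed by edgeR or DESeq2, with 1 and 0 at an unadjusted p under 0.05. Of 5 neuron, 3 dopamine neuron, 2 precursor and 5 astrocyte markers tested, 0 passed by edgeR, at an unadjusted p under 0.05 or by DESeq2, and 0 microglia and vessel markers were abundant enough to test.

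Against the 131 *Grm3*- *Opalin*+ nuclei, chosen by the mirror image of the rule, *Grm3*+ *Opalin*- nuclei had less *Rras2*, *Man1a1*, *Tnik*, *Nfasc* and *Tcf7l2* and more *Zbtb16*, *Trpm3* and *Dennd2a*. Of 3394 genes, 182 differed (5.36%), 69 higher (2.03%) and 113 lower (3.33%), and the median log2 fold change of all genes was -0.00. A change of over 2-fold was seen in 129, and 112 moved the same way in all 5 rats. Without rat 4 the count was 108 of 3458 genes tested, without rat 5 it was 90 of 3421 and without rats 1 and 3 it was 330 of 8143. DESeq2 called 593 of 18546 genes, 538 higher and 55 lower, a lean to be read beside its counts over lists. Without the block 41 of 3394 passed, and 89 of 1361 passed with UMI totals matched. A limit of 2 UMIs for *Grm3* and *Opalin*, with rat 3 dropped for want of nuclei, gave 357 of 3019 genes, 178 higher and 179 lower. The summed neuron markers were 24.3 in the *Grm3*- *Opalin*+ nuclei of rat 1, against 10.4 in its *Grm3*+ *Opalin*- nuclei, and their part in the result was not tested.

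*Rras2* showed the widest difference. It was at 0.213, 0.254, 0.495, 0.211 and 0.267 in *Grm3*+ *Opalin*- nuclei and at 12.1, 12.4, 16.4, 12.5 and 20.5 in *Grm3*- *Opalin*+ nuclei. All rats were far apart in the same direction, with rat 3 highest among the *Grm3*+ *Opalin*- values, and the log2 fold change was -5.77 (SE 0.28, edgeR adjusted p = 7.2e-88). The *Grm3*- *Opalin*+ level rests on a minority of nuclei, since *Rras2* had a UMI in 3, 18, 2, 5 and 6 of them (34 of 131, 26.0%) and the 10 nuclei with most held 77.4% of its 655 UMIs. In *Grm3*+ *Opalin*- nuclei a UMI occurred in 119 of 2194 (5.42%). *Rras2* was abundant enough to test through the *Grm3*- *Opalin*+ sums alone. *Man1a1*, a mannosidase of the Golgi, was at 0, 0.159, 0.990, 0.122 and 0.0889 against 2.41, 4.29, 18.7, 3.58 and 6.34, lower in each rat (log2 fold change -4.92, SE 0.29, edgeR adjusted p = 4.6e-61). It too entered the test through the *Grm3*- *Opalin*+ sums alone, and other genes named as lower may have done so. *Nfasc*, the adhesion molecule that anchors paranodal loops, was at 5.06, 4.11, 3.47, 5.91 and 5.92 against 17.4, 21.8, 25.7, 37.0 and 37.1. The groups were apart in each rat (log2 fold change -2.37, SE 0.23, edgeR adjusted p = 5.3e-23). The 10 *Grm3*- *Opalin*+ nuclei with most UMIs of the gene held 71.3% of the *Man1a1*, 62.7% of the *Nfasc* and 75.8% of the *Cntn1* UMIs of that group. *Man1a1* was found in 27 of its 131 nuclei. *Nfasc* was found in 81 of them (61.8%), against 1528 of the 2194 *Grm3*+ *Opalin*- nuclei (69.6%). The share of nuclei with *Nfasc* was thus not lower in the *Grm3*+ *Opalin*- nuclei, unlike its level. *Rasgef1b*, *Sez6l*, *Tnik*, *Gas7*, *Tmtc1*, *Fam214a*, *Cntn1*, *Ptpro* and *Mcam* were the other genes named as lower, from -2.36 for *Mcam* to -4.57 for *Rasgef1b*. The *Grm3*- *Opalin*+ sum of rat 3 holds 3 nuclei only.

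*Zbtb16*, a zinc finger repressor, was at 1.12, 1.25, 2.04, 5.80 and 4.64 in *Grm3*+ *Opalin*- nuclei against 0.142, 0.321, 0, 1.15 and 0.853 in *Grm3*- *Opalin*+ nuclei. Each rat was higher, rats 4 and 5 in both groups most, and the log2 fold change was 2.29 (SE 0.34, edgeR adjusted p = 3.5e-09). *Zbtb16* was abundant enough to test through the *Grm3*+ *Opalin*- sums alone, so its call depends on that group. *Dennd2a*, *Pdzd2*, *Trpm3*, *P2rx7*, *Ankub1*, *Dscaml1*, *Gsta6*, *Crybg3*, *Sorcs1*, *Fam135b* and *Sgk3* followed, from 1.54 for *Sgk3* to 2.15 for *Dennd2a*. *Trpm3* encodes a cation channel and *Sorcs1* a sorting receptor. *Gsta6* belongs to the glutathione transferases, similar genes between which the counting may have divided reads.

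**Figure D4:**
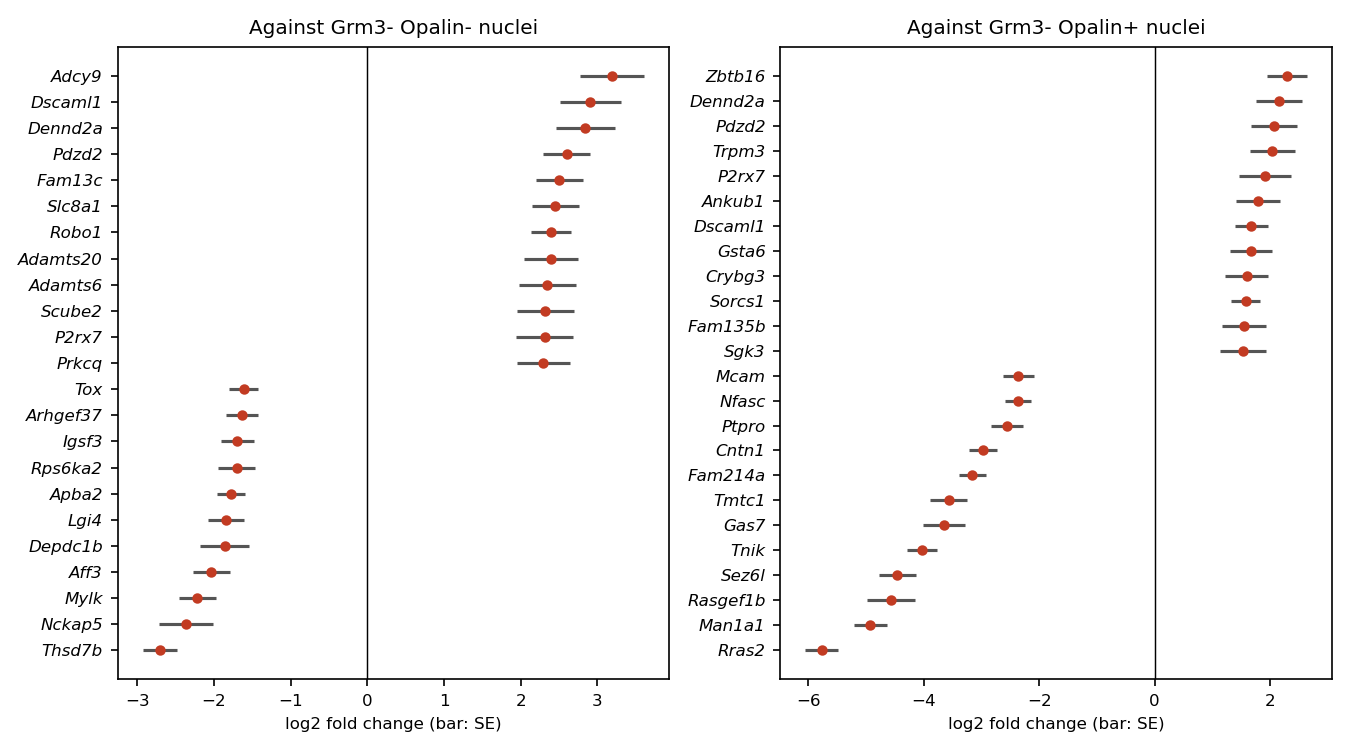
Log2 fold changes (x axis, bars are SE) of genes named for *Grm3*+ *Opalin*- nuclei against *Grm3*- *Opalin*- nuclei (left) and against *Grm3*- *Opalin*+ nuclei (right) of the 5 rats. On the right, *Rras2* lies lowest at -5.77 and *Zbtb16* highest at 2.29.

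Of 9 tested genes of newly formed and myelin-forming oligodendrocytes 5 were lower, where 3.33% of all genes tested were lower. A gene could pass the abundance filter through 1 group alone, as *Rras2* did through the *Grm3*- *Opalin*+ sums. The count and the list median cover only genes that passed it. *Ctps1*, *Fyn*, *Rras2*, *Sirt2* and *Tcf7l2* were lower and *Bcas1* higher, with a list median of -1.17 against -0.00 for all genes. *Tcf7l2*, a transcription factor of newly differentiating oligodendrocytes, was at 0.213, 0.399, 0.805, 0.319 and 0.299 against 2.13, 1.97, 0, 2.44 and 2.68. It was lower in 4 rats, while no *Tcf7l2* UMI occurred in the *Grm3*- *Opalin*+ sum of rat 3 (log2 fold change -2.66, SE 0.29, edgeR adjusted p = 1.6e-17). *Tcf7l2* was found in 25 of the 131 *Grm3*- *Opalin*+ nuclei (19.1%), of which 10 held 85.4% of its UMIs, and in 193 of the 2194 *Grm3*+ *Opalin*- nuclei (8.80%). The axon contact list had 6 lower members, *Ank3*, *Cntn1*, *Lsamp*, *Nfasc*, *Sema4d* and *Sema6a*, and 1 higher, *Cntn2*, among 23 (list median -0.01), whereas DESeq2 called 6 higher and 4 lower. *Lsamp* was lower in 3 rats and higher in 2. Of the newly formed list DESeq2 called 2 higher and 3 lower. *Ank3* encodes ankyrin G and had a log2 fold change of -2.14 (SE 0.21, edgeR adjusted p = 3.6e-22).

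In the remaining lists fewer members passed. Of 21 myelin genes *Car2* and *Hapln2* were higher and *Mag* and *Tspan2* lower (list median 0.05), where DESeq2 called 8 higher and 1 lower. Of 13 mature state genes *Car2*, *Rbfox1* and *Slc5a11* were higher and 0 lower by edgeR or at an unadjusted p under 0.05, while DESeq2 called 8 higher and 1 lower (list median 0.38). Of 8 glutamate receptor and scaffold genes *Gria4* was higher and 2 were lower, among them *Grid1* (list median -0.36), and of 17 genes of Gi signalling *Creb5* and *Gng12* were lower (list median 0.16), although *Gng12* was lower in 2 of 5 rats only and DESeq2 called 8 of the list higher and 1 lower. DESeq2 called 2 higher and 1 lower of the glutamate receptor list. *Trpm3* was higher among 5 TRP channels (list median 0.36), *Acsl3* lower among 19 lipid synthesis genes (list median -0.09) and *Sirt2*, which 2 lists hold, lower among 3 energy supply genes (list median 0.05), while DESeq2 called 4 higher and 0 lower of the lipid synthesis genes and 0 of the energy supply genes. Of 11 transcription factors, 5 genes of NAAG metabolism and 11 of potassium buffering 0 passed by edgeR, with 2, 1 and 2 at an unadjusted p under 0.05 and 1, 2 and 5 called by DESeq2 (list medians -0.19, 0.14 and 0.32). Of 4 neuron, 3 dopamine neuron and 4 astrocyte markers and 3 immediate early genes 0 passed by edgeR, at an unadjusted p under 0.05 or by DESeq2, and 0 precursor, microglia or vessel markers were abundant enough for edgeR, while DESeq2 called 1 precursor marker higher.

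**Figure D5:**
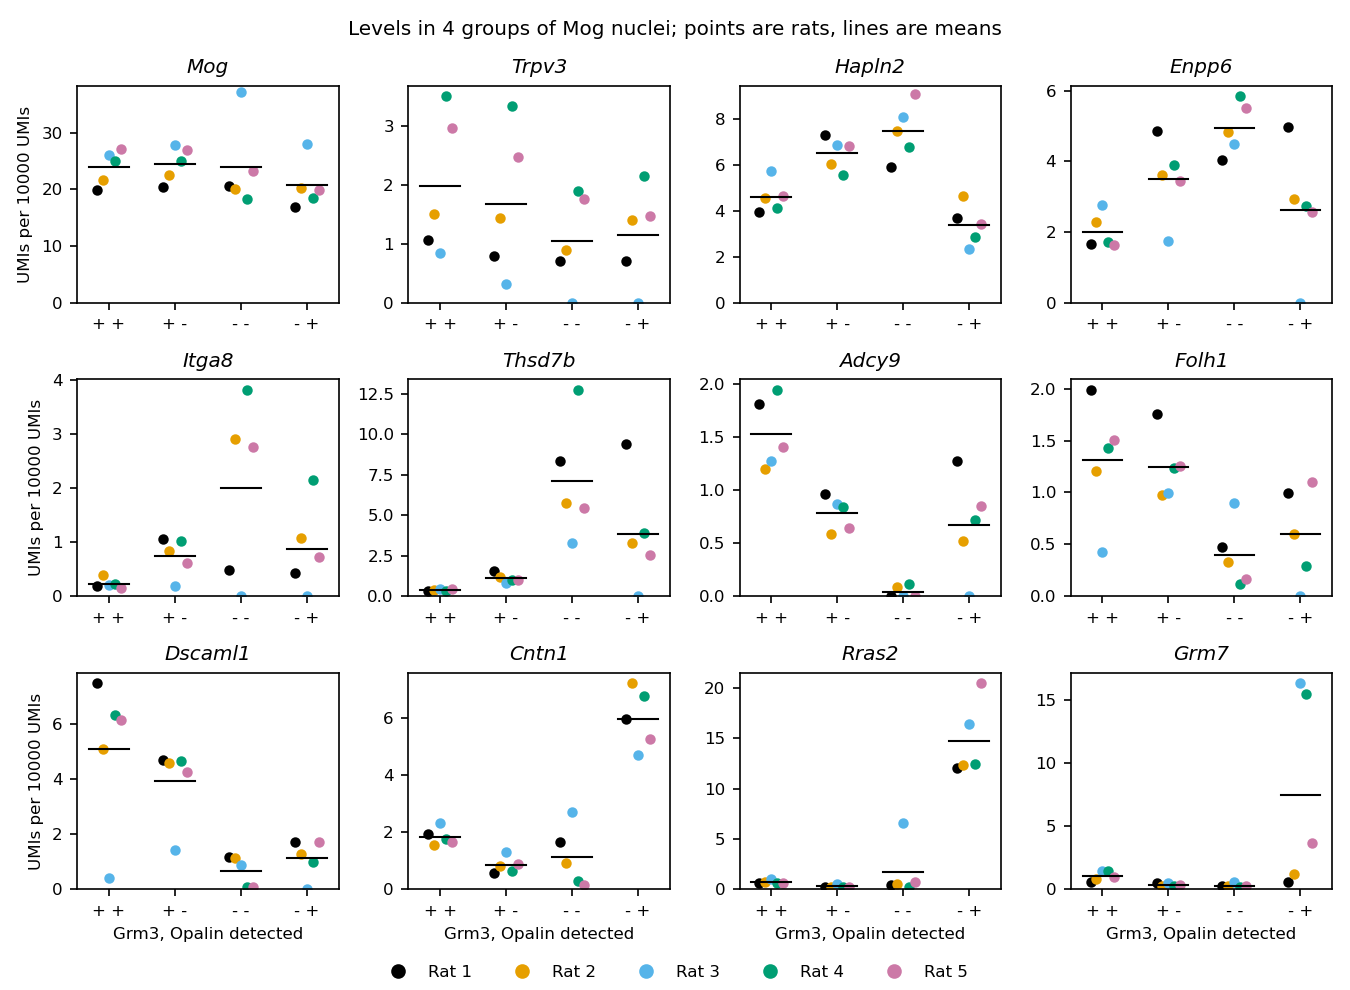
Levels (UMIs per 10000 UMIs, y axes starting at 0) of 12 genes in the *Mog* nuclei of each rat (points) with means (lines), in groups with *Grm3* and *Opalin* detected (+ +), *Grm3* alone (+ -), neither (- -) and *Opalin* alone (- +). *Rras2* was at 0.211 to 0.495 with *Grm3* alone and at 12.1 to 20.5 with *Opalin* alone, where 34 of 131 nuclei had a *Rras2* UMI, and *Adcy9* was highest on average with both.

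Within the *Grm3*+ *Opalin*- nuclei, few genes passed the test between those with and without a *Trpv3* UMI. A *Trpv3* UMI was found in 11 of 52, 214 of 780, 5 of 117, 437 of 805 and 179 of 440 nuclei of rats 1 to 5. Median depth was higher with *Trpv3* in each rat, at 2979, 3010, 1356, 3080 and 2671 UMIs against 2257, 2453.5, 1020, 2880.5 and 2385. Of 7275 genes 2 were higher with *Trpv3* (0.0275%) and 0 lower by edgeR, with 315 at an unadjusted p under 0.05, and DESeq2 called 0. *Lrrtm4*, a synaptic adhesion protein, was at 0.992, 2.35, 18.2, 0.882 and 2.51 with *Trpv3* and at 1.57, 1.45, 3.73, 0.747 and 0.805 without. It was higher in 4 of 5 rats, lower in rat 1, and widest apart in rat 3, where it rests on 21 UMIs of 5 nuclei (log2 fold change 0.80, SE 0.14, edgeR adjusted p = 2.6e-05). *Pdzrn3*, a ubiquitin ligase, was at 2.32, 3.13, 0.866, 1.47 and 1.27 with *Trpv3* against 2.20, 1.82, 0.267, 0.979 and 1.07 without, higher in 5 of 5 rats (log2 fold change 0.58, SE 0.13, edgeR adjusted p = 0.032). *Lrrtm4* was named after its value was seen. Without rat 3, 1 gene was lower and 0 were higher, so that neither *Lrrtm4* nor *Pdzrn3* passed. The count was 0 without rat 5 (188 at an unadjusted p under 0.05), 4 without rats 1 and 3, 2 with UMI totals matched, where *Pdzrn3* no longer passed, and 0 without the block (15 at an unadjusted p under 0.05).

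Some genes of the *Grm3*+ *Opalin*- nuclei differed widely between rats. *S100b*, a calcium-binding protein of glia, was at 8.63, 12.1, 1.36, 2.19 and 4.55 in rats 1 to 5, and at 11.2, 14.2, 1.03, 1.18 and 2.98 in non-oligodendrocyte nuclei. Rats 1 and 2 were high in both and rats 3 and 4 low. *Zbtb16* at 1.12, 1.25, 2.04, 5.80 and 4.64 was high in rats 4 and 5, as was *Trpv3*. The share of free RNA in *Mog* nuclei, estimated from dopamine neuron transcripts, was 17.1, 28.3, 6.32, 12.7 and 19.2%, and its part in these levels was not tested.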

How the data were processed

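Single-nucleus RNA-seq was available for 5 rats, 1 library each. The authors deposited UMI counts per gene and barcode as unfiltered 10x Genomics matrices, before their correction for free RNA, filters and clustering. The labels name Cell Ranger 8.0.1, whereas the matrix headers name version 4, and the genome build is not given in the sources used here. Nothing was realigned.

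The members and gene lists were chosen with earlier results of these data known, so counts over lists are descriptions. They are to be read beside the share of all genes called in the same comparison. Levels are UMIs per 10000 UMIs of the summed nuclei, and nuclei were not treated as replicates. Sums per rat were tested with edgeR 4.0.16 (TMM, filterByExpr, quasi-likelihood F test, rat as block, Benjamini-Hochberg over all genes tested) in R 4.3.3. SE is the absolute log2 fold change divided by the square root of F. Genes used to choose nuclei were left out, as was *Trpv3* where it divided nuclei. A gene could pass filterByExpr through its level in 1 group alone. Both sums of a comparison came from the same animal, which is where the pairing comes from, and deviations of paired sums from the group means correlated at 0.201 to 0.681 against *Grm3*- *Opalin*-, 0.270 to 0.598 against *Grm3*- *Opalin*+, 0.233 to 0.673 against *Grm3*+ *Opalin*+ and 0.121 to 0.613 for *Trpv3*. The scripts were tested on simulated data.

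Named genes were up to 12 with the highest and 12 with the lowest log2 fold change (8 and 8 for *Trpv3*) that passed, had at least 50 UMIs and moved the same way in every rat on the scale of edgeR, the 10 with the highest ratio to non-oligodendrocyte nuclei at a level of at least 1, the markers, and members of 19 gene lists, of which 12 genes were not found in the files by name. Genes known only by a locus code were not named. Alternatives were DESeq2 1.42.0, its size factors, no filter, no block, each rat left out, matched UMI totals, other limits on nuclei, subtraction of free RNA, and removal of the 6% of barcodes with the highest Scrublet score (scanpy 1.11.5). Doublets were otherwise kept, because the threshold of Scrublet marked at most 1 barcode per library. Shares carry the spread over rats and no counting interval. Some genes that passed are not reported here by name.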

Additional observations from a re-analysis of the deposited data

Results flagged for a closer look

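Rat 3 lay apart from the other 4 rats in 4 of 18 sets of values examined with Dixon's test at its 95% level (5 rats, critical value 0.71), a test that chance passes in about 1 of 20 sets. Of its *Mog* nuclei, 17.4% were *Grm3*+ *Opalin*+, against 63.8 to 77.6% in the other rats, and 17.4% were *Grm3*- *Opalin*-, against 1.85 to 5.52%. The median depth of its *Grm3*+ *Opalin*- nuclei was 1045 UMIs, against 2490.5 to 3000. Its *Rras2* level in these nuclei was 0.495 UMIs per 10000 UMIs, against 0.211 to 0.267, and rests on 7 of its 117 nuclei. *Rras2* in its *Grm3*- *Opalin*+ nuclei was 16.4, from 2 of 3 nuclei. At 1000 UMIs per nucleus, over its 96 *Mog* nuclei of that depth, rat 3 had 8.33% *Grm3*+ *Opalin*+ nuclei against 34.3 to 43.5%, and 25.0% *Grm3*- *Opalin*- nuclei against 4.68 to 11.6%, where the second gap no longer passed Dixon's test. The part of depth in its *Rras2* level was not tested.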

How the results depend on the processing

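DESeq2 gave 540 genes against *Grm3*- *Opalin*- nuclei, 593 against *Grm3*- *Opalin*+, 536 against *Grm3*+ *Opalin*+ and 0 for *Trpv3* (213 at an unadjusted p under 0.05). Without the replicate block, that is with the pairing by rat ignored, the counts were 48, 41, 0 (319 at an unadjusted p under 0.05) and 0 (15). Leaving out 1 rat at a time gave 66 to 725 genes against *Grm3*- *Opalin*-, 90 to 216 against *Grm3*- *Opalin*+, 463 to 1069 against *Grm3*+ *Opalin*+ and 0 to 2 for *Trpv3*. Without rats 1 and 3, chosen after the data were seen, counts were 804 of 8479, 330 of 8143, 1105 of 11476 and 4 of 8693. Matched UMI totals gave 154 of 2533 against *Grm3*- *Opalin*- and 89 of 1361 against *Grm3*- *Opalin*+. For the latter, no filter on low counts gave 322 of 18546. A limit of 2 UMIs for *Grm3* and *Opalin* gave 357 of 3019, with rat 3 dropped for want of nuclei. The number of genes tested changed with these settings, so their counts do not compare directly. The cause of these shifts was not tested.

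No named or listed gene that passed turned direction under an alternative, and among all called genes 2 did against *Grm3*- *Opalin*+ at the limit of 2 UMIs, and against *Grm3*+ *Opalin*+ 6 without the block, 1 with UMI totals matched and 1 with the highest doublet scores removed. None of these passed in the new direction. Values no longer passed in 96 cases against *Grm3*- *Opalin*-, 96 against *Grm3*- *Opalin*+, 221 against *Grm3*+ *Opalin*+, where 2 began to pass, and 8 for *Trpv3*. Thinning to 1000 UMIs gave a *Grm3*+ *Opalin*- share of 54.1%, and leaving out 1 rat 23.8 to 36.4%. The median ratio of the 10 genes highest against non-oligodendrocyte nuclei was 9.98, and 9.28 to 10.9 with 1 rat left out. These genes were picked for that ratio and include *Mog*, so a high value was set by the choice. Removal of barcodes at the threshold of Scrublet was not run, because it marked almost none. Of the 5311 *Grm3*+ *Opalin*+ nuclei, 1868 had exactly 1 *Opalin* UMI, and each would be called *Grm3*+ *Opalin*- if that UMI were missed. How many *Grm3*+ *Opalin*- nuclei were called so through low depth was not tested.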
